A study of Ovis aries with 16 samples.

Results

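PTGER1 and ALOX5AP, 2 genes of the eicosanoid pathway, are described here as measured on a sheep array hybridized with left ventricular RNA of fetal sheep. They were found by taking every noncontrol probe that the scanner files give to either gene by gene name, sequence name or description, which returned 4 of the 15008 probes on the array, 2 per gene. The 4 probes stand for 2 of the 861 genes that could be named. The genes had been selected on expression values measured on these arrays, and which level or contrast chose them is not recorded. Their levels and treatment differences are therefore given as a description, and whether a probe passed the threshold is stated without being used as support.

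Eicosanoids are signalling lipids made from arachidonic acid. Cyclooxygenases turn it into prostaglandins, and the 5-lipoxygenase branch turns it into leukotrienes. PTGER1 encodes the EP1 receptor for prostaglandin E2, a G-protein-coupled receptor that raises intracellular calcium. ALOX5AP encodes the 5-lipoxygenase activating protein (FLAP), a membrane protein that presents arachidonic acid to 5-lipoxygenase and is found mainly in leukocytes. In the fetal circulation, prostaglandin E2 is best known for keeping the ductus arteriosus open.

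The arrays came from 16 fetuses of 8 twin pairs, 1 array per fetus, catheterized at 125 to 126 days of a 145-day gestation and studied over a 5-day treatment. Losartan, which blocks the type 1 receptor of angiotensin II, was given to 1 twin in each of sets 1 to 4, and angiotensin II itself to 1 twin in each of sets 5 to 8. The co-twins served as untreated controls, which gave 4 arrays in each of 4 groups. For the untreated twins the labels mention no sham infusion. They disagree on whether dosing was daily or continuous and on whether the septum was taken along with the free wall. The tissue label was checked against 17 cardiomyocyte marker names, of which only MB, the muscle oxygen store myoglobin, was found among the named genes. MB was well above background on all 16 arrays, at a mean normalized log2 level of 5.94.

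Levels are normalized log2 values, scaled so that 0 is the 75th percentile of an array's processed signal and 1 unit is a doubling. That percentile was 1124 units of fluorescence on the dimmest array and 1709 on the brightest, and 57.3% to 64.1% of probes were well above background on an array. The number of arrays limits the precision. Probes passed the threshold at a limma adjusted p under 0.05 over 8970 tested probes, in a fit with the twin set as a block.

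A set of 3 arrays stood apart from the rest, those of the untreated twin in set 2 and of the angiotensin II fetuses in sets 7 and 8. On the first principal component, which held 32.1% of the variance, these 3 arrays lay between 30.2 and 39.8 and the other 13 between -19.1 and -0.4. Their bright corner control spots, which carry no sample gene, read 17.26 to 17.75 on the log2 scale against 14.45 to 15.42. All 3 lay on slide 2 in the second array row. The fourth array of that row, of the losartan fetus in set 4, did not stand apart. Results that rest on the 3 arrays are given with and without them, and the part of array position in those results was not tested.

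The probe sequences are shown first because the 2 PTGER1 probes read almost the same stretch of RNA, and so are not independent measurements of the gene. Both are 60 bases long and 60% G or C, and the files name their target LOC443012. Capitals mark the 58 bases they share, and lower case the 2 bases that each has alone.
A_70_P041066: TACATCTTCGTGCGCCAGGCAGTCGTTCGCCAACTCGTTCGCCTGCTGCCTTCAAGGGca
A_70_P041067: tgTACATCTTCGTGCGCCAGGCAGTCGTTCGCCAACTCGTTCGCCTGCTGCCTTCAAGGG
The ALOX5AP probes, filed under FLAP, overlap by 40 bases and are 35% and 40% G or C. Of that overlap, 30 bases are shown, all shared by both probes.
A_70_P016781 and A_70_P016782: ATCCTGCTTTTCTGAAGACGTTTTGTGACC

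PTGER1, the EP1 receptor, was near 1 level in 13 fetuses and far lower in 3, and those 3 were the arrays that stood apart. Probe A_70_P041067, used as the gene's main probe for its higher mean over the 16 arrays and well above background on all of them, read -1.32, -1.23, -0.66 and -1.57 in the losartan fetuses of sets 1 to 4. Their untreated twins read -1.39, -3.56, -0.79 and -1.53. In sets 5 to 8 the angiotensin II fetuses read -1.50, -1.17, -3.61 and -3.34, and their untreated twins -1.33, -1.70, -1.38 and -1.0. The low values were thus 1 untreated fetus and 2 angiotensin II fetuses, and no losartan fetus was low. Without those 3 arrays, the ranges of all 4 groups overlapped.

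In fluorescence units the same probe gave 126, 138 and 136 on the 3 low arrays and 427 to 849 on the other 13. The normalized level was -3.50 ± 0.14 (SD, n = 3) on the low arrays and -1.27 ± 0.30 (SD, n = 13) on the others, a gap of 1.64 between the highest of the 3 and the lowest of the 13. These 2 sets of arrays were formed after the data were seen, so no test is given for them. By group, the order was losartan at -1.19 ± 0.38, untreated twins of the angiotensin II arm at -1.35 ± 0.29, untreated twins of the losartan arm at -1.82 ± 1.20 and angiotensin II at -2.40 ± 1.25 (SD, n = 4 each). No neighbours in that order differed by more than the larger of their SDs.

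**Figure D1:**
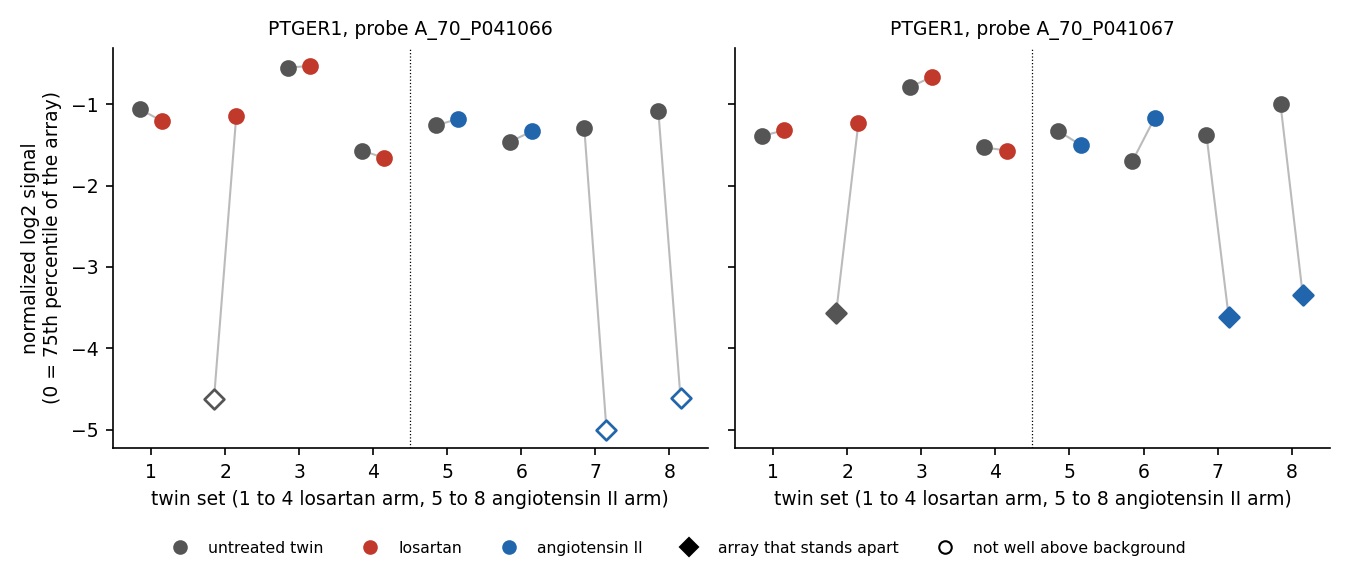
PTGER1 in every fetus by both of its probes, as normalized log2 signal (y axis) against twin set (x axis), with a line joining each treated fetus to its untreated twin. Diamonds mark the 3 arrays that stand apart and open symbols a signal not well above background; the 3 diamonds lie below -3 in both panels and all other points lie above -2.

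The second probe, A_70_P041066, gave the same picture with a larger drop. It read -1.21, -1.15, -0.53 and -1.66 in the losartan fetuses and -1.06, -4.62, -0.55 and -1.57 in their untreated twins. The angiotensin II fetuses read -1.18, -1.33, -5.00 and -4.61, and their untreated twins -1.26, -1.46, -1.29 and -1.08. On the same 3 arrays it was not well above background, at 52 to 61 fluorescence units against 425 to 1004 on the other 13, so its level there is only a bound. The 2 probes correlated across arrays at r = 0.988 (n = 16), and at r = 0.881 over the 13 other arrays. They differed by -0.33 to 0.16 (A_70_P041067 minus A_70_P041066) on the 13 and by 1.06 to 1.39 on the 3, although 58 of their 60 bases are the same.

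Few probes on the array dropped on the 3 arrays as far as those of PTGER1. Taking the mean of the 3 arrays minus the mean of the other 13 for each of the 8970 tested probes, A_70_P041066 was the lowest of all, at -3.57, and A_70_P041067 the fourth lowest, at -2.23, or 4.68-fold lower. Only 5 probes were below -2, the other 3 of them with no gene name, whereas 19 were above 2. Over all tested probes the median was -0.01, with 5th and 95th percentiles of -0.64 and 0.78. On 863 probes (9.62%) all 3 arrays lay below all 13, and on 1045 (11.65%) all 3 lay above. The same difference for ALOX5AP was -0.21 by A_70_P016781 and -0.13 by A_70_P016782. This ranking was made after the data were seen and describes these arrays. Tested probes had to be well above background on every array of some group, and the 3 arrays fill no group. A probe bright only on the 3 was thus left out, while a probe dim only on the 3 could be ranked. A_70_P041066 was such a probe, so its -3.57 is only a bound.

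**Figure D2:**
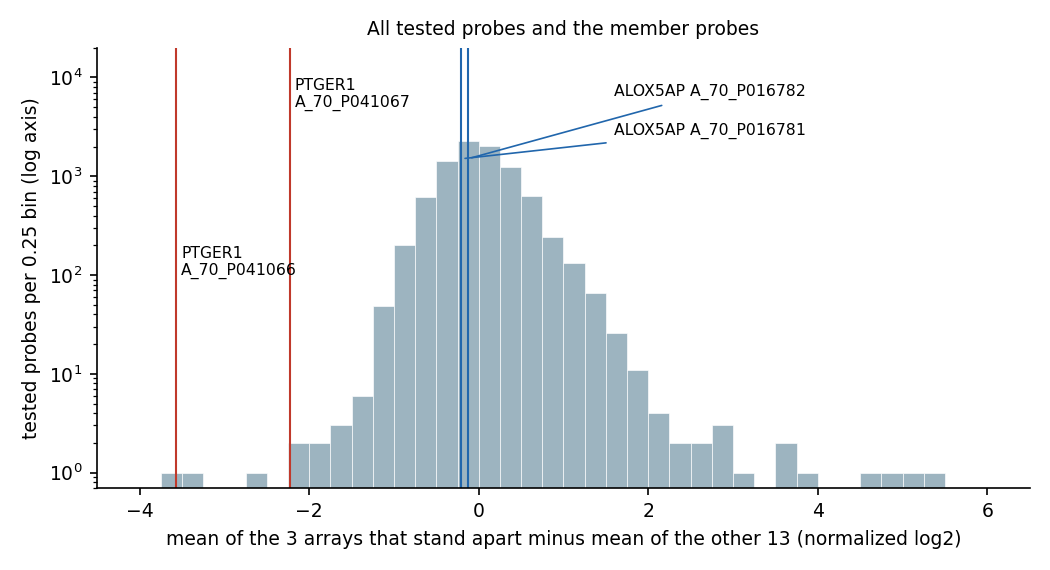
Counts of tested probes (y axis, log scale) by the mean of the 3 arrays that stand apart minus the mean of the other 13 (x axis, normalized log2), with vertical lines at the 4 probes of PTGER1 (red) and ALOX5AP (blue). The PTGER1 lines lie at -3.57 and -2.23, outside most of the distribution, and the ALOX5AP lines lie near its middle.

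Base content was compared because the PTGER1 probes are rich in G and C. Over the tested probes the median content was 43.3%. At exactly 60%, where 111 probes including both of PTGER1 lie, the median difference between the 3 arrays and the 13 was 0.22, and 78 of the 111 were above 0. Only the 2 PTGER1 probes of those 111 were below -2. Across all 8970 probes, which share the same arrays and are not independent, content and difference correlated at r = 0.19.

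PTGER1 did not pass the threshold with losartan, with angiotensin II or in the difference between them. The twin ratios (treated minus untreated, log2) of A_70_P041067 were 0.07, 2.33, 0.13 and -0.03 with losartan, so 3 of the 4 pairs were within 0.13 of 0 and set 2 supplied the rest. Their mean was 0.63 (limma SE 0.52), and 0.06 without set 2. With losartan 1.22% of tested probes passed (0.223% higher, 0.992% lower). With angiotensin II the ratios were -0.17, 0.53, -2.22 and -2.34, with a mean of -1.05 (limma SE 0.52), and 0.18 over sets 5 and 6 alone. With angiotensin II 0% of tested probes passed in limma, where 936 had an unadjusted p under 0.05.

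When the losartan change was subtracted from the angiotensin II change, the difference was -1.68 (limma SE 0.73) for A_70_P041067 and 0.12 without sets 2, 7 and 8. In that contrast 1.64% of tested probes passed (1.33% with the higher value under angiotensin II, 0.312% with the lower). By A_70_P041066 the losartan ratios were -0.14, 3.48, 0.02 and -0.09, with a mean of 0.81 (limma SE 0.78) and of -0.07 without set 2. The angiotensin II ratios were 0.08, 0.13, -3.71 and -3.53, with a mean of -1.76 (limma SE 0.78) and of 0.11 without sets 7 and 8. In each arm the size of the PTGER1 estimate thus came mostly from the pairs that hold an array standing apart. Without set 2 the losartan value kept its sign by A_70_P041067 and changed it by A_70_P041066, with both near 0.

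All 3 low arrays were on slide 2, so the estimates are also given by slide. Within slide 2, A_70_P041067 gave -4.50 for the difference of the effects. There the losartan comparison had only a low array as its untreated side, and the angiotensin II comparison had only low arrays as its treated side. Within slide 1, which holds none of the low arrays and only 1 losartan array, A_70_P041067 gave -0.37. With slide as a further block beside the twin set, over all 16 arrays, it gave 1.17 with losartan, -1.05 with angiotensin II and -2.22 for the difference, and none of these passed. The fits within a slide were made without the twin block, because the twins of sets 1, 4, 5 and 7 lay on different slides.

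The 2 slides compare differently for PTGER1 in the authors' deposited value table than in the scanner files. In that table the mean of A_70_P041066 was 8.90 on slide 1 and 8.95 on slide 2 on the log2 scale, nearly equal although 3 of the 8 slide 2 arrays read 7.52 to 7.63. The other 5 slide 2 arrays averaged 9.78 there, 0.88 above slide 1. In the log2 mean spot signal of the scanner files those 5 arrays averaged 9.32 and slide 1 averaged 9.40, a difference of -0.08. A_70_P041067 behaved likewise, with the 5 arrays 0.74 above slide 1 in the value table and 0.01 above it in the scanner signal. Close slide means in the value table were not particular to PTGER1. Over all tested probes the median absolute difference between slide means was 0.0303 in the value table. It was 0.1481 in the normalized values, a scale other than the mean spot signal used above. The sources used here do not give how the table was made.

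ALOX5AP, the leukotriene pathway gene, was close to 1 level in 15 fetuses and higher in 1, the angiotensin II fetus of set 6. Probe A_70_P016782, the higher of its probes and well above background on all 16 arrays, read -0.94, -0.90, -1.21 and -1.06 in the losartan fetuses. Their untreated twins read -1.27, -0.99, -0.74 and -0.92. The angiotensin II fetuses read -0.91, -0.06, -1.08 and -1.11, and their untreated twins -1.20, -1.09, -0.93 and -0.85. In fluorescence units the fetus of set 6 gave 1496, and the other 15 arrays gave 466 to 892. The 4 groups overlapped.

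By group, ALOX5AP averaged -0.79 ± 0.49 with angiotensin II, -0.98 ± 0.22 in the untreated twins of the losartan arm, -1.02 ± 0.16 in the untreated twins of the angiotensin II arm and -1.03 ± 0.14 with losartan (SD, n = 4 each). No neighbours in that order differed beyond the larger of their SDs. The 3 arrays that stand apart were not low for this gene, at -1.06 ± 0.06 (SD, n = 3) against -0.93 ± 0.30 (SD, n = 13). The second probe, A_70_P016781, read -1.70 to -0.44 over the 16 arrays and was also highest in the angiotensin II fetus of set 6. The 2 probes correlated at r = 0.932 (n = 16).

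**Figure D3:**
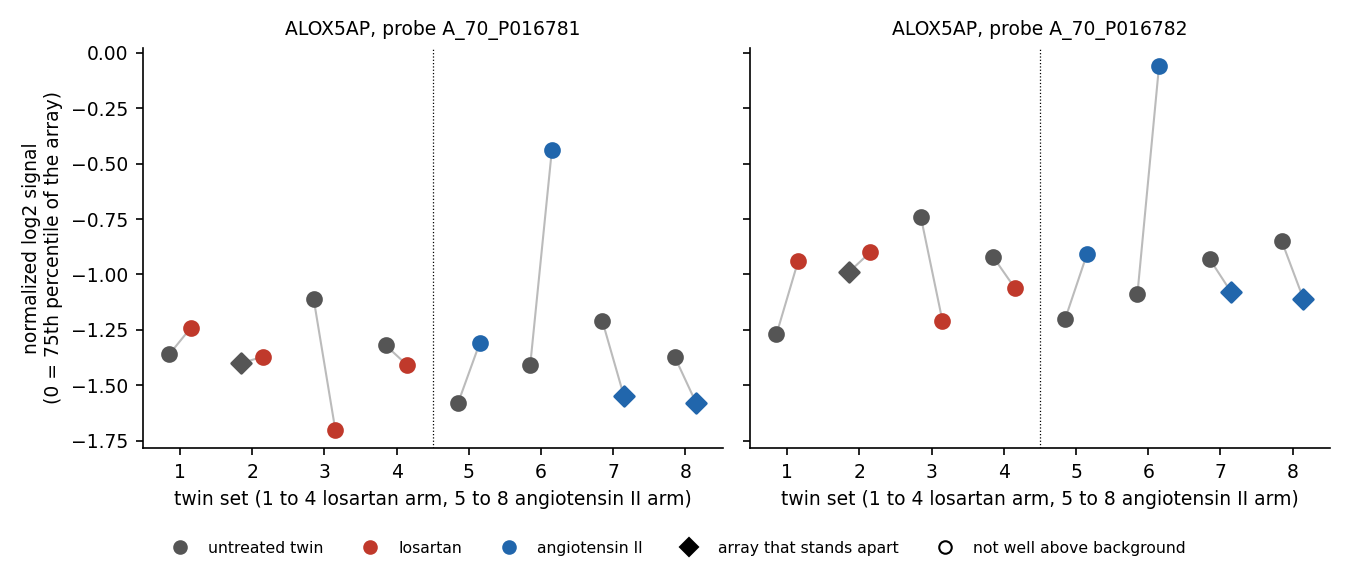
ALOX5AP in every fetus by both of its probes, as normalized log2 signal (y axis) against twin set (x axis), with a line joining each treated fetus to its untreated twin; diamonds mark the 3 arrays that stand apart. The angiotensin II fetus of set 6 is the highest point in both panels, at -0.44 and -0.06.

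ALOX5AP did not pass the threshold in any contrast. Its twin ratios with losartan by A_70_P016782 were 0.33, 0.09, -0.47 and -0.14, 2 above and 2 below 0, with a mean of -0.05 (limma SE 0.21). With angiotensin II they were 0.28, 1.03, -0.14 and -0.26, again 2 above and 2 below 0, with a mean of 0.23 (limma SE 0.21). The difference of the effects was 0.27 (limma SE 0.29). Without sets 2, 7 and 8 the losartan mean was -0.09, the angiotensin II mean 0.66 over the pairs of sets 5 and 6, and the difference 0.75. Without set 6 the angiotensin II value was -0.04. A_70_P016781 gave -0.13 with losartan, 0.18 with angiotensin II (limma SE 0.20 for each) and 0.31 for the difference (limma SE 0.29).

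The untreated twins of the 2 arms serve as the background for both genes. Angiotensin II arm minus losartan arm, they differed by 0.47 (limma SE 0.50) in PTGER1 and by -0.04 (limma SE 0.14) in ALOX5AP by the main probes. Neither passed the threshold, and 0% of tested probes did in limma, where 298 had an unadjusted p under 0.05. Without the untreated twin of set 2 the PTGER1 value was -0.11. PTGER1 and ALOX5AP were weakly correlated with each other, at r = 0.23 over 16 arrays and 0.17 over the 13.

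The named genes most like each member were ranked by Pearson's r over the 16 arrays among 448 tested genes, as a description of values that share arrays and scaling. For PTGER1 the highest were TRIP4 (0.96), TCP1 (0.90), RABGGTB (0.89), TRA2A (0.88) and CAV1 (0.82). Over the 13 arrays left without the 3 that stand apart, these fell to 0.72, 0.40, 0.27, 0.51 and 0.20. The lowest were CXCL1, a neutrophil-attracting chemokine, at -0.97, SLC16A1, a lactate and pyruvate carrier, at -0.96, and KIF5B, a kinesin motor, at -0.95. Over the 13 arrays these were -0.62, -0.61 and -0.65. CXCL1 read 7.21 to 7.42 on the 3 arrays and 2.81 to 4.34 on the others, so it moved opposite to PTGER1 on the same arrays.

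For ALOX5AP the highest included FCER1G, a signalling chain of Fc receptors carried by myeloid and mast cells (0.83), LOC443295, which the files name B2M and which encodes a light chain of class I histocompatibility molecules (0.72), CD86, a costimulatory molecule of antigen-presenting cells (0.65), and CTSS, a lysosomal protease (0.64). The lowest were LOC780442, a succinate dehydrogenase subunit of the mitochondrial respiratory chain, at -0.70, GGTA1 at -0.67 and FTH1, the ferritin heavy chain, at -0.63. FCER1G, LOC443295, CD86 and CTSS were about as like it over the 10 arrays of sets 1, 3, 4, 5 and 6, at 0.85, 0.79, 0.76 and 0.78. They were less so without the 2 arrays farthest from the ALOX5AP median, the angiotensin II fetus of set 6 and the untreated twin of set 1. The values were then 0.43 for FCER1G, 0.29 for LOC443295, 0.30 for CD86 and 0.37 for CTSS, so these relations rest largely on those arrays. For FTH1 the value was then 0.02.

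**Figure D4:**
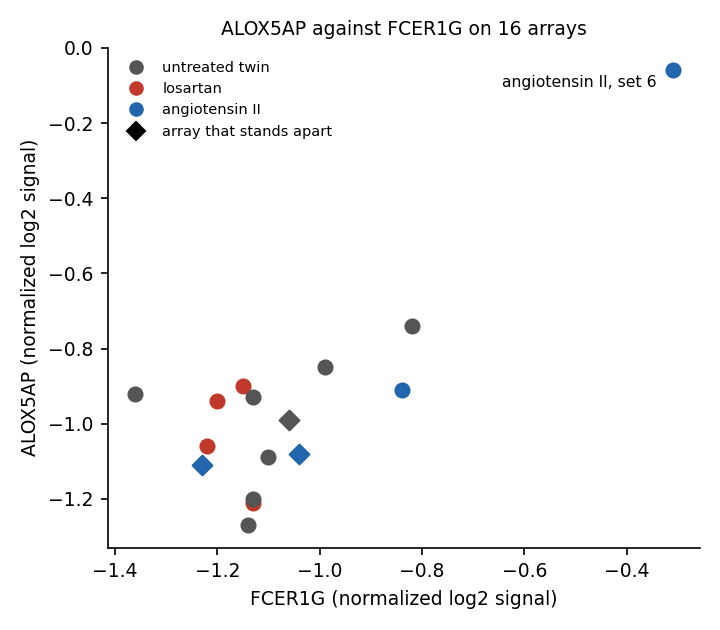
ALOX5AP (y axis) against FCER1G (x axis), both as normalized log2 signal, 1 point per fetus coloured by treatment, with diamonds for the 3 arrays that stand apart. The angiotensin II fetus of set 6 lies alone at the upper right, and the other 15 points form a loose cloud.

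Markers of blood and immune cells were read beside ALOX5AP because its RNA is found mainly in leukocytes, and in whole tissue more cells of a type and more RNA per cell cannot be told apart. FCER1G, the only tested gene of 3 general leukocyte markers found on the array, read -0.31 in the angiotensin II fetus of set 6 and -1.10 in its twin, a ratio of 0.80. Its level on the linear scale ran from 0.39 to 0.57 in the untreated twins of the losartan arm, 0.43 to 0.46 with losartan, 0.46 to 0.51 in the untreated twins of the angiotensin II arm and 0.43 to 0.81 with angiotensin II. Of the other 2, ITGB2 was well above background on 11 arrays and CYBB on 0.

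Among lists for single cell types, the set 6 ratio was 0.18 for CD14, the only tested gene of 3 monocyte and macrophage markers, and ITGAM was well above background on 0 arrays. It was 1.14 for FCER1A, the only tested gene of 3 mast cell markers, of which KIT and MS4A2 were well above background on 0 arrays. The 3 tested neutrophil markers, the antimicrobial peptides CATHL3, CATHL1B and BAC5, had a median ratio of 1.86 in set 6. Their medians with losartan were 2.78, 0.62, 3.41 and 2.88 in sets 1 to 4, where the ALOX5AP ratios were 0.33, 0.09, -0.47 and -0.14. Summed on the linear scale, these 3 genes spanned 2.93 to 15.76 with losartan and 0.76 to 2.21 in the untreated twins of that arm. LTF, also of the neutrophil list, was well above background on 1 array and was not tested. The remaining lists had set 6 medians of -0.03 for the lymphocyte markers CD3E and CD3D, -0.88 for the erythroid HBB, 0.01 for 2 endothelial and 0.03 for 3 fibroblast markers, -0.17 for MB and 2.14 for the smooth muscle gene CNN1, the largest of these. The part of cell content in the set 6 value was not tested.

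The rest of the pathway was sparsely measured. Of 74 listed eicosanoid gene names, 10 were found on the array by name and 5 were tested, the 2 members with PTGER3, PTGS1 and PTGDS. By their representative probes, 0 of these 3 other genes passed the threshold in limma with losartan, with angiotensin II or in the difference, and 1, 0 and 1 of them had an unadjusted p under 0.05. Over all 8970 tested probes, 1104, 936 and 1858 had one. Their median log2 change was -0.38 with losartan and 0.15 with angiotensin II, against 0.007 and -0.016 over all tested probes. Of the 14 leukotriene genes listed, only ALOX5AP was found by name. ALOX5, which encodes the 5-lipoxygenase that ALOX5AP serves, and the leukotriene receptors were therefore not analysed here.

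Of the prostaglandin receptors, PTGER3 (EP3, which lowers cyclic AMP) was the only one found on the array besides PTGER1 that was bright enough to be tested. Its representative probe A_70_P041077 had twin ratios of -0.53, -0.41, -0.33 and -0.77 with losartan and 0.01, 0.30, 0.20 and 0.09 with angiotensin II. The losartan change of -0.51 (SE 0.10) had a limma adjusted p of 0.0545, and the difference of 0.66 (SE 0.15) one of 0.0585. Its other probe, A_70_P041076, passed, at -0.55 with losartan (limma adjusted p 0.0321) and 0.69 for the difference (limma adjusted p 0.0452). The change was as large by A_70_P041077 without sets 2, 7 and 8, at -0.55 with losartan and 0.70 for the difference. On those 10 arrays neither probe passed in limma, with an adjusted p of at least 0.106 for losartan and at least 0.218 for the difference. For A_70_P041076 the losartan adjusted p in limma was 0.0789 with slide as a further block and 0.303 without the twin block. The difference by that probe had a limma adjusted p of 0.0457 with the slide block and 0.219 without the twin block. Its losartan change was -0.45 within slide 1, which holds 1 losartan array, and -0.94 within slide 2, where the only untreated twin of the arm is the array of set 2 that stands apart. A_70_P041077 passed in limma on the authors' deposited value table, with an adjusted p of 0.00691 for losartan and 0.00613 for the difference. It also passed with normexp and quantile normalization, at 0.0139 and 0.0138, but not with quantile normalization alone, at 0.0643 and 0.0695. A_70_P041076 passed in limma on the value table, at 0.0182 and 0.0178, but not with normexp and quantile normalization, at 0.0573 and 0.0626. With quantile normalization alone, A_70_P041076 passed for losartan (limma adjusted p 0.0297) but not for the difference (0.0505).

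The other receptors were dim. PTGER2 (EP2) and PTGFR, the prostaglandin F receptor, were well above background on 0 of 16 arrays by every probe, and PTGER4 (EP4) on 5 arrays by 1 probe and 0 by the other. Among the enzymes, PTGS1, the constitutive cyclooxygenase, had a log2 value of 0.23 with losartan and -0.11 with angiotensin II (limma adjusted p 0.544 and 0.748). Without sets 2, 7 and 8 its values were 0.28 and 0.17, so the angiotensin II direction turned. PTGS2, the inducible cyclooxygenase, was well above background on 4 arrays at most and was not tested. PTGDS, which makes prostaglandin D2, had twin ratios of -0.24, -0.82, 0.25 and -0.70 with losartan and -0.14, -0.37, 0.67 and 0.74 with angiotensin II. Its changes of -0.38 and 0.23 had limma adjusted p of 0.532 and 0.667. Without sets 2, 7 and 8 they were -0.23 and -0.26, so the angiotensin II direction turned here too, and the difference went from 0.60 to -0.03. SLCO2A1, the prostaglandin transporter, was well above background on 4 arrays and was not tested.

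**Figure D5:**
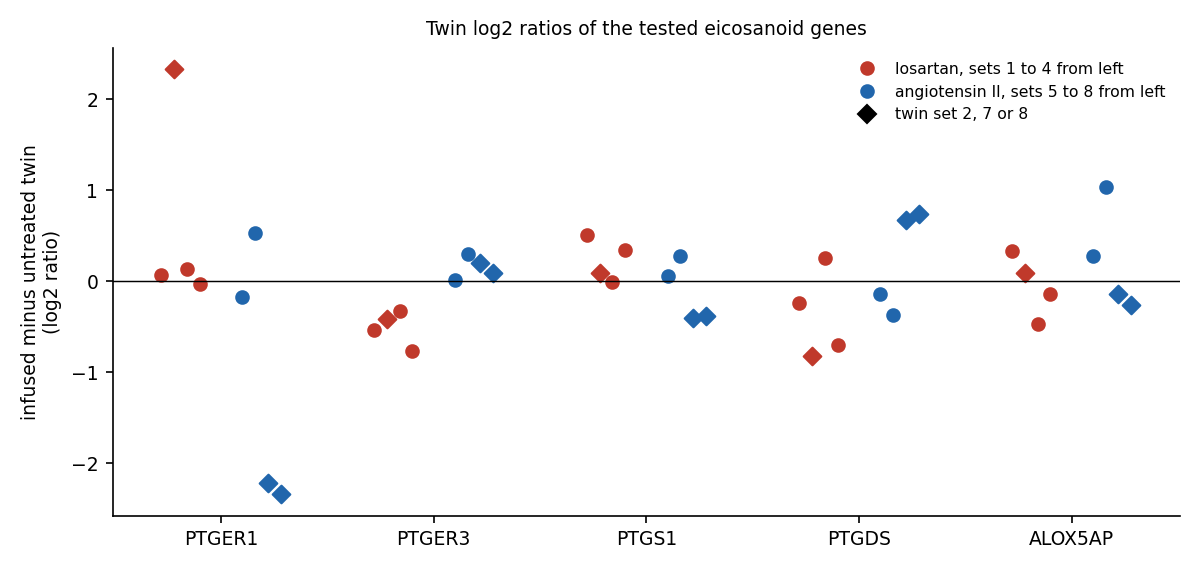
Twin log2 ratios (y axis, treated minus untreated) of the 5 tested eicosanoid genes (x axis), 1 point per twin set, sets 1 to 4 in red and 5 to 8 in blue, each in order from the left. Diamonds mark sets 2, 7 and 8, which carry the PTGER1 ratios of 2.33, -2.22 and -2.34. The PTGER3 ratios lie below 0 in all 4 losartan sets and above 0 in all 4 angiotensin II sets, the lowest of these at 0.01. The share of all tested probes with such a split is not given here.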

How the data were processed

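Left ventricular RNA of 16 fetal sheep was hybridized to 1-colour Agilent arrays read in the red channel, 8 arrays on each of 2 slides. Per the file headers, Agilent Feature Extraction 10.7.3.1 made the deposited spot intensity values, background-subtracted and detrended within each array. The authors' deposited value table tracked the mean spot signal on a natural log scale (per-array r of 0.9978 to 0.9991, slopes of 1.018 to 1.054, column medians of 5.793 to 5.803). Its centring is unknown, and it served as an alternative and for the slide means. RNA integrity numbers were 7.5 to 10, per the labels.

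Control spots and 3 to 9 outlier spots per array were dropped, and repeat spots averaged. Saturated probes numbered 0. Processed signals were divided by the array's 75th percentile and taken to log2. Testing covered the 8970 probes well above background on all 4 arrays of any group. Names came from the reference table (assembly ARS-UI_Ramb_v3.0) for 1387 probes, by accession, symbol, gene identifier, synonym or a hand-written map, and 13621 had none. The files name no genome build, so no coordinates are given.

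The fit used limma 3.58.1 under R 4.3.3 with statmod 1.5.0 on the 16 arrays together, each twin set a fixed block (6 residual and 3.69 prior degrees of freedom), two-sided, with Benjamini-Hochberg adjustment at 0.05. The untreated twins were compared without a block. The script was tested on simulated data. The pairing is stated in the labels; deviations from group means correlated at 0.22, 0.24, 0.46, 0.077, -0.039, 0.28, 0.15 and 0.53 in sets 1 to 8. A gene's representative was its tested probe with the highest mean over 16 arrays. Named genes were both members by every probe, the listed pathway genes by role, and the 5 most and 3 least correlated named genes of each member. Items withheld from this text are not reported here. The members, lists and cell type markers were chosen with earlier results of these data known. The comparison of 3 arrays with 13, the base content, the slide means, the leukocyte ratios of set 6, the correlations without the 2 farthest arrays, the PTGER3 alternatives and the fit without those 3 arrays were added after the data were seen. Figures were drawn with matplotlib 3.10.9 in Python 3.11.15, using pandas 2.3.3 and numpy 2.4.6.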

Additional observations from a re-analysis of the deposited data

Results flagged for a closer look

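In PTGER1 the losartan twin ratio of set 2 lay far from those of the other 3 pairs by both probes, at 3.48 for A_70_P041066 and 2.33 for A_70_P041067. The gap to the nearest other pair was 0.955 and 0.932 of the whole range. This is a description, since PTGER1 was selected on these arrays. The untreated twin of that pair is 1 of the 3 arrays that stand apart, the 2 probes share 58 of their 60 bases, and the A_70_P041066 signal of that twin was not well above background, so 3.48 is only a bound. The cutoff for a flagged gap, which lies below both of these values, is passed by chance in about 1 in 20 groups. Of the 30 groups examined, 2 passed it, and both are the PTGER1 entries given here. They share the outlying array and nearly all probe bases, so the count cannot be weighed against the rate of 1 in 20. For PTGER3 by A_70_P041077, the ratios were below 0 in all 4 losartan pairs and above 0 in all 4 angiotensin II pairs, the lowest of these at 0.01. The share of all tested probes whose 2 arms lie apart in this way is not given here. The PTGER3 difference of 0.66 by this probe was tested and did not pass, at a limma adjusted p of 0.0585. By the other PTGER3 probe the difference of 0.69 passed, at a limma adjusted p of 0.0452.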

How the results depend on the processing

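PTGER1 and ALOX5AP did not pass the threshold in most alternatives: over 26 alternatives each, the losartan value of PTGER1 ran from 0.05 to 2.19 and its angiotensin II value from -2.31 to 0.21, and those of ALOX5AP from -0.23 to 0.09 and from -0.07 to 0.66. Within slide 2 PTGER1 gave 2.19 with losartan, -2.31 with angiotensin II and -4.50 in the difference. There the only untreated array of the losartan arm and all the angiotensin II arrays are ones that stand apart. All 3 contrasts come from 1 fit, in which the untreated side of the losartan arm holds 1 array. Only the sizes of the PTGER1 estimates are therefore given for slide 2, and whether any of them passed is not. In the authors' deposited value table PTGER1 passed in the difference (-1.85). Its difference was -0.37 within slide 1, 0.12 without sets 2, 7 and 8, and -0.029 with no replicate block and without the 3 arrays that stand apart, an alternative chosen after seeing the data. The ALOX5AP difference was 0.76 within slide 1, which holds only 1 losartan array. With no replicate block the number of probes that passed with losartan fell from 109 to 0, and in the difference from 147 to 3; without the 3 arrays as well, they were 0 and 4. The losartan count was 434 in the value table, 57 for probes well above background on all 16 arrays, 68 with twin set as a random block, 43 within slide 1, 548 within slide 2 and 41 over the arrays of the arm alone. The difference count was 1734 in the value table, 92 for probes well above background on all 16 arrays, 431 with slide as a further block, 38 within slide 1, 1902 within slide 2 and 75 without sets 2, 7 and 8. The angiotensin II count went from 0 to 354 within slide 2 and to 1 without sets 2, 7 and 8. Leaving out each twin set in turn gave losartan counts of 34 (without set 3) to 99 and difference counts of 54 (without set 7) to 112. The cause of these changes was not tested; leaving out arrays or probes also leaves fewer to test.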
